A study of Rattus norvegicus with 48 samples.

Results

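In rat primary cortical cultures, 9 P2 receptor genes other than those that mark resting microglia were followed here. They were taken by symbol from the deposited table, 9 of the 30211 genes listed. P2rx1, P2rx4, P2rx5, P2rx6 and P2rx7 encode P2X channels, and P2ry1, P2ry2, P2ry6 and P2ry14 encode P2Y receptors. P2ry12 and P2ry13, the P2Y receptors that mark resting microglia, were left out of the group and stand beside it for comparison. The table lists 15 P2 receptor genes in all. P2rx2, P2rx3, P2ry4 and P2ry10 were not in the group either.

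The cultures were prepared from the cortex of 18-day Sprague-Dawley rat fetuses, kept for 21 days and sequenced as 48 RNA libraries, 3 for each of 16 groups. Control cultures received no Tat, cocaine or test compound, and the design text names a vehicle control. Cocaine was given at 25 µM for 24 h. Tat, the transactivator protein of HIV-1, was given as recombinant protein of residues 1 to 86 at 6 ng/mL for 48 h, alone (Tat) or with cocaine for the last 24 h (Tat-Cocaine). The compounds were 4-octyl itaconate (4OI, a membrane-permeable itaconate ester, 250 µM), amlexanox (an inhibitor of the kinases TBK1 and IKKε, 25 µM), tazemetostat (an EZH2 inhibitor, 3 µM) and senicapoc (a KCa3.1 channel blocker, 1 µM). Each was given for 48 h by itself, together with Tat, or together with Tat and cocaine. Tat was thus present in 30 libraries and absent from 18, and 4OI was present in 9. No source used here says whether the 3 libraries of a group came from separate preparations, so p-values measure the spread between these libraries only, which may be technical.

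P2X receptors are cation channels that open when extracellular ATP binds, and each channel is built of 3 subunits. P2Y receptors are G protein-coupled receptors for extracellular nucleotides: ATP and ADP, UTP and UDP, or nucleotide sugars. Injured or active cells release these nucleotides, and ectonucleotidases on the cell surface break them down to adenosine. In brain, P2X4, P2X7 and P2Y6 are best known from microglia, where P2X7 gates the release of interleukin-1β and P2Y6 senses UDP during phagocytosis. P2Y1, a receptor for ADP, is known from neurons and astrocytes.

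The promoters of P2ry2, P2rx4, P2rx7 and P2rx1 are shown because these genes carried the changes with Tat or with 4OI. P2ry2 is a receptor for ATP and UTP, and its promoter lies at chr1:164779489-164779738 (minus strand). P2rx4 at chr12:39523090-39523339 and P2rx7 at chr12:39594923-39595172 (both minus strand) are neighbours with 0 protein-coding genes between them. P2rx1, whose product is a fast ATP-gated channel of smooth muscle, platelets and leukocytes, lies at chr10:58116857-58117106 (plus strand). The sequences are RefSeq sequence of GRCr8, the 250 bases before the transcription start, written 5′ to 3′ on the gene's strand. Capitals mark matches to the motifs searched.
P2ry2: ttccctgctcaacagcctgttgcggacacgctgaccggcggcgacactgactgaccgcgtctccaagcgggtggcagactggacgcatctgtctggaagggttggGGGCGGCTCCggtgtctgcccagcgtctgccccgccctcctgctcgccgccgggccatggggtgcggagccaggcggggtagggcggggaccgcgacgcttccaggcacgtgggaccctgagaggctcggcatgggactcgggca
P2rx4: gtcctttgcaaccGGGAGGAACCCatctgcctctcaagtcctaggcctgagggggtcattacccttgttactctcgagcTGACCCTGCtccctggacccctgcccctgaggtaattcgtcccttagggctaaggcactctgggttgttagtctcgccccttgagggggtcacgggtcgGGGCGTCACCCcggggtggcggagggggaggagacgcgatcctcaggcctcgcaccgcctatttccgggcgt
P2rx7: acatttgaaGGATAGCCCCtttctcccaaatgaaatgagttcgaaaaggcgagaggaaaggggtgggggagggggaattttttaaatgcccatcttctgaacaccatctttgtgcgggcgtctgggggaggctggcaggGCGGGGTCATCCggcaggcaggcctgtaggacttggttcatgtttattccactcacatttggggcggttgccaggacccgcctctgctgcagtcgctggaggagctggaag
P2rx1: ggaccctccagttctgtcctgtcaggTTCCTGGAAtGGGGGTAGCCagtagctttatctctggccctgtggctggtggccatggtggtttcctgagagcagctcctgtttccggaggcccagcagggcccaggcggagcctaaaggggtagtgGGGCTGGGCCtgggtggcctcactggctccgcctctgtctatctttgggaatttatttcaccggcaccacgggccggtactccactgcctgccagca

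A promoter was at hand for 7 of the 9 genes (not for P2ry6 and P2rx5), and 6 motifs were searched on both strands. The core of the antioxidant response element, TGACNNNGC, was found in 2 of the 7, P2rx4 and P2rx7, and in 10.08% of all 33469 rat promoters of the same length. Its match starts 171 bases before the start of P2rx4 and, on the opposite strand, 111 bases before the start of P2rx7, where it overlaps a κB match. The κB motif, GGG followed by any 5 bases and CC, was found in all of the 7 but P2ry14, and in 42.32% of all promoters. In P2rx4 each of its sites is an overlapping pair of matches on opposite strands. The gamma-activated site TTCNNNGAA was found in P2rx1, 224 bases before the start, and in 7.667% of all promoters. The interferon-stimulated core (GAAA, any 2 bases, GAAA), the AP-1 motif TGANTCA and the PU.1-type motif GAGGAAG were found in 0 of the 7, against 3.406%, 6.34% and 10.23% of all promoters. A match describes letters only.

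Levels are given in CPM (a gene's reads scaled to the size of its library, after TMM normalization by the authors) and serve to compare libraries, not genes, since CPM is not corrected for length. Depth was 17.5 to 29.1 M reads per library (median 22.4), so that 0.5 CPM stood for 8.58 to 14.96 reads. Changes are log2 fold changes of CPM + 0.5 from limma in 1 fit to all 48 libraries, with a Benjamini-Hochberg adjusted p under 0.05 over the 15890 genes tested as the threshold, and they understate the change of low genes. All 9 receptor genes were tested. The libraries are labelled as neurons. Of 16 neuronal markers, 0 were below 0.5 CPM in every library, but neither were any of 16 myeloid and 10 astrocyte markers, and the summed myeloid markers ran from 866 to 8223 CPM. Below 0.5 CPM throughout were 6 of 7 lymphocyte markers and 3 of 7 endothelial markers. In Cocaine replicate 3 the summed markers of oligodendrocytes reached 27209.7 CPM, against at most 2428 in the other 47 libraries.

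With Tat, 5 of the 9 receptor genes rose: P2ry2, P2ry6, P2rx4, P2rx5 and P2rx7. Of all genes tested, 21.3% were called in the same comparison. The median change of the 9 was 1.03, against 0.01 over all genes tested. P2rx1, P2rx6, P2ry1 and P2ry14 did not pass the threshold, and 6 of the 9 had an unadjusted p under 0.05. The 5 calls held under each of 11 other settings of the analysis and without any single library of the pair of groups.

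P2ry6, the receptor for UDP, stood at 7.67, 19.6 and 17.2 CPM in the 3 Control libraries and at 90.3, 120.3 and 62.1 CPM in the 3 Tat libraries. The lowest Tat library was above the highest Control library. The log2 fold change was 2.63 ± 0.48 (SE, adjusted p = 1.10e-04), or 6.18-fold. P2ry2, which lies next to P2ry6 on chromosome 1 with 0 protein-coding genes between them, stood at 1.61, 2.01 and 1.04 CPM in Control and at 12.3, 14.9 and 10.8 CPM in Tat cultures. These groups did not overlap either, and the change was 2.697 ± 0.29 (SE, adjusted p = 1.94e-08). Over the whole series 29 of the 30 libraries with Tat were above the highest library without Tat (3.10 CPM) for P2ry2, and 26 of 30 for P2ry6 (35.98 CPM). That highest library for P2ry6 was a Cocaine culture, in a group that read 5.52, 35.98 and 17.2 CPM. The span of P2ry2 overlaps that of Fchsd2 in the RefSeq annotation, but whether their exons overlap was not examined. The strand setting of the read counting is not given in the sources used here, so whether any reads were shared is not known.

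The channel gene P2rx4 stood at 38.3, 60.99 and 48.3 CPM in Control and at 103, 145 and 99.4 CPM in Tat cultures. The groups did not overlap, and P2rx4 rose by 1.23 ± 0.24 (SE, adjusted p = 3.04e-04). Its neighbour P2rx7 stood at 3.34, 4.61 and 4.90 CPM in Control and at 8.72, 11.9 and 7.33 CPM in Tat cultures. All 3 Tat libraries were again the higher ones, with a change of 1.03 ± 0.22 (SE, adjusted p = 7.26e-04). P2rx5, which forms small ATP-gated currents on its own, had a low level in Control, 0.422, 0.883 and 0.272 CPM. It read 3.14, 4.18 and 3.59 CPM with Tat, a change of 2.05 ± 0.34 (SE, adjusted p = 3.52e-05), and 42 of the 48 libraries held at least 0.5 CPM of it. Across the series, 25 of the 30 Tat libraries for P2rx7 and 22 of 30 for each of P2rx4 and P2rx5 exceeded every library without Tat. P2rx4 overlaps Camkk2 in the annotation.

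**Figure D1:**
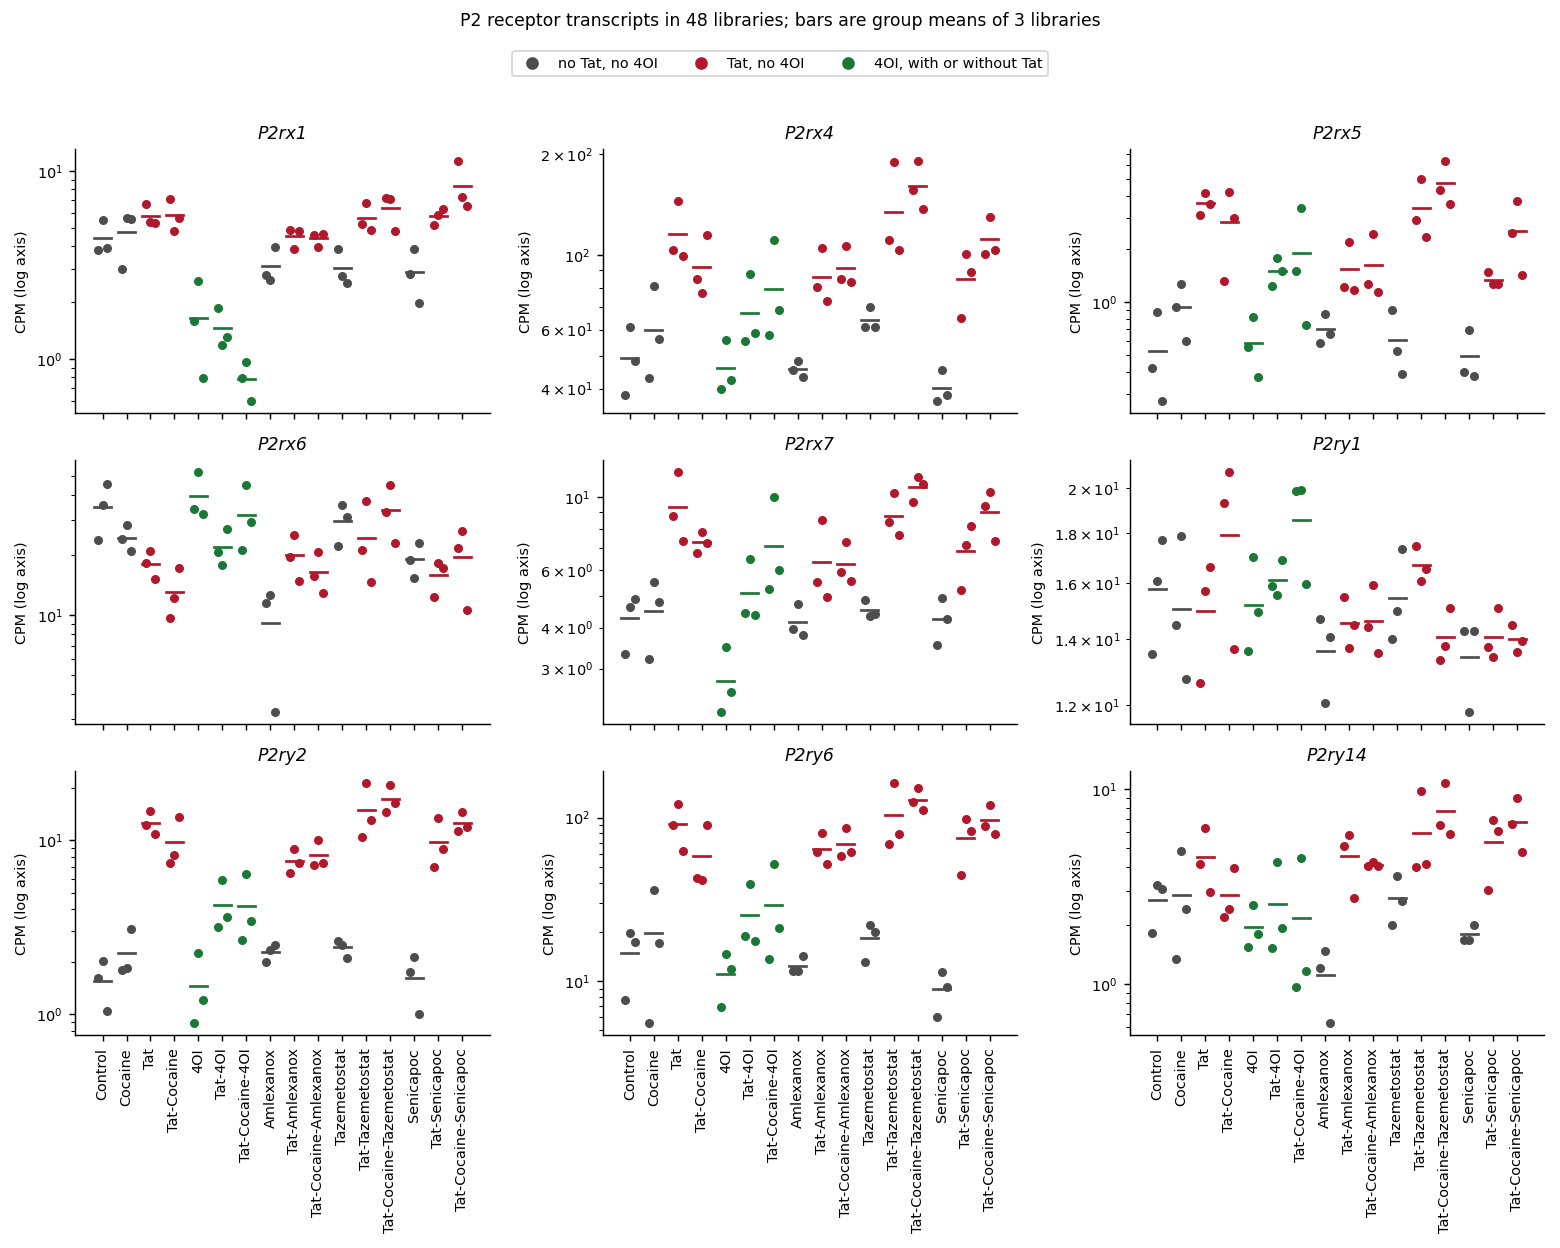
CPM of the 9 receptor genes (log axis, 1 panel per gene) in the 16 groups, with 1 point per library and bars at the group means. Grey groups had neither Tat nor 4OI, red groups Tat without 4OI and green groups 4OI. For P2ry2 the 24 libraries with Tat and without 4OI lie between 6.51 and 21.3 CPM and the 18 without Tat between 0.884 and 3.10 CPM, while P2ry1 stays between 11.8 and 20.8 CPM in all 48.

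P2rx1, P2rx6, P2ry14 and P2ry1 showed other patterns with Tat. P2rx1 read 3.80, 5.49 and 3.90 CPM in Control and 6.69, 5.33 and 5.29 CPM in Tat cultures, overlapping ranges with a difference of 0.37 ± 0.25 (SE, adjusted p = 0.295). P2ry14, a receptor for UDP-glucose, read 1.82, 3.24 and 3.06 CPM in Control and 4.11, 6.32 and 2.95 CPM in Tat cultures, which also overlapped. Its difference was 0.60 ± 0.41 (SE, adjusted p = 0.291). P2ry14 overlaps Med12l in the annotation, as do P2ry12 and P2ry13. P2rx6, a subunit that hardly forms channels on its own, read 23.7, 35.5 and 45.6 CPM in Control and 18.1, 20.9 and 15.1 CPM in Tat cultures. The groups did not overlap, but the difference of -0.90 ± 0.38 (SE, adjusted p = 0.0855) did not pass the threshold. P2ry1 read 13.5, 16.1 and 17.7 CPM in Control and 12.6, 15.7 and 16.6 CPM in Tat cultures, with a difference of -0.07 and a 95% interval of -0.34 to 0.19.

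The same Tat contrast was available in the cultures that received a compound. Under tazemetostat, 6 of the 9 rose with Tat (P2rx1, P2rx4, P2rx5, P2rx7, P2ry2 and P2ry6), beside 16.1% of all genes. P2ry2 changed by 2.35 ± 0.29 (SE, adjusted p = 6.49e-07) and P2ry6 by 2.39 ± 0.48 (SE, adjusted p = 6.25e-04). Under senicapoc 6 rose as well (P2rx1, P2rx4, P2rx7, P2ry2, P2ry6 and P2ry14), beside 16% of all genes. P2ry6 changed there by 2.98 ± 0.48 (SE, adjusted p = 4.35e-05). The summed myeloid markers (16 genes) also moved with these contrasts, from 1536 to 2817 CPM with senicapoc alone to 3061 to 4753 CPM with Tat, without overlap, and from 3163 to 4255 CPM to 4037 to 8223 CPM under tazemetostat, and their part was not tested. Per 1000 CPM of them P2rx1 was at 1.47 ± 0.337 CPM (SD, n = 3) with senicapoc alone and 1.49 ± 0.237 CPM with Tat, while P2ry6 was at 4.52 ± 0.925 and 18.7 ± 3.62 CPM. Without Tat-Tazemetostat replicate 2 the count under tazemetostat was 3, and without replicate 3 of Senicapoc or of Tat-Senicapoc the count under senicapoc was 3 too.

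Under amlexanox, 5 of the 9 rose with Tat (P2rx4, P2rx6, P2ry2, P2ry6 and P2ry14), beside 39.6% of all genes. P2ry2 changed by 1.54 ± 0.29 (SE, adjusted p = 2.82e-04) and P2ry6 by 2.31 ± 0.48 (SE, adjusted p = 6.08e-04). P2ry14 read 1.21, 1.47 and 0.626 CPM with amlexanox alone and 5.12, 5.80 and 2.77 CPM with Tat added. The groups did not overlap, and the change was 1.64 ± 0.41 (SE, adjusted p = 0.00293). The summed myeloid markers also moved, from 2188 to 3209 CPM with amlexanox alone to 3340.4 to 4112 CPM with Tat, without overlap. Their part was not tested. Per 1000 CPM of them P2rx4 read 16.6 ± 3.62 CPM (SD, n = 3) with amlexanox alone and 23.8 ± 1.83 CPM with Tat. P2rx6 was at 3.38 ± 2.13 and 5.46 ± 0.898 CPM, and P2ry2 at 0.817 ± 0.0957 and 2.11 ± 0.1497 CPM. P2ry6 was at 4.49 ± 0.832 and 17.8 ± 2.08 CPM, and P2ry14 at 0.405 ± 0.182 and 1.25 ± 0.372 CPM. Under senicapoc P2ry14 read 1.69, 1.68 and 2.01 CPM without and 3.03, 6.97 and 6.08 CPM with Tat, a change of 1.28 ± 0.41 (SE, adjusted p = 0.0283) that was lost without any 1 of 5 of the 6 libraries (all but Tat-Senicapoc replicate 1).

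Under 4OI, 2 of the 9 rose with Tat, beside 5.18% of all genes. P2ry2 read 0.884, 2.24 and 1.21 CPM with 4OI alone and 3.16, 5.91 and 3.60 CPM with Tat and 4OI, without overlap, and rose by 1.30 ± 0.29 (SE, adjusted p = 0.00636). P2rx7 read 2.21, 3.49 and 2.54 CPM and 4.44, 6.45 and 4.38 CPM, again without overlap, and rose by 0.78 ± 0.22 (SE, adjusted p = 0.0275). An unadjusted p under 0.05 was found for 6 of the 9. The count was 0 without 4OI replicate 1 or Tat-4OI replicate 2 and 1 without 4OI replicate 3. It was 0 when the compared groups were fitted on their own and 1 with vooma weights or in the fit to the 21 libraries of 7 groups.

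**Figure D2:**
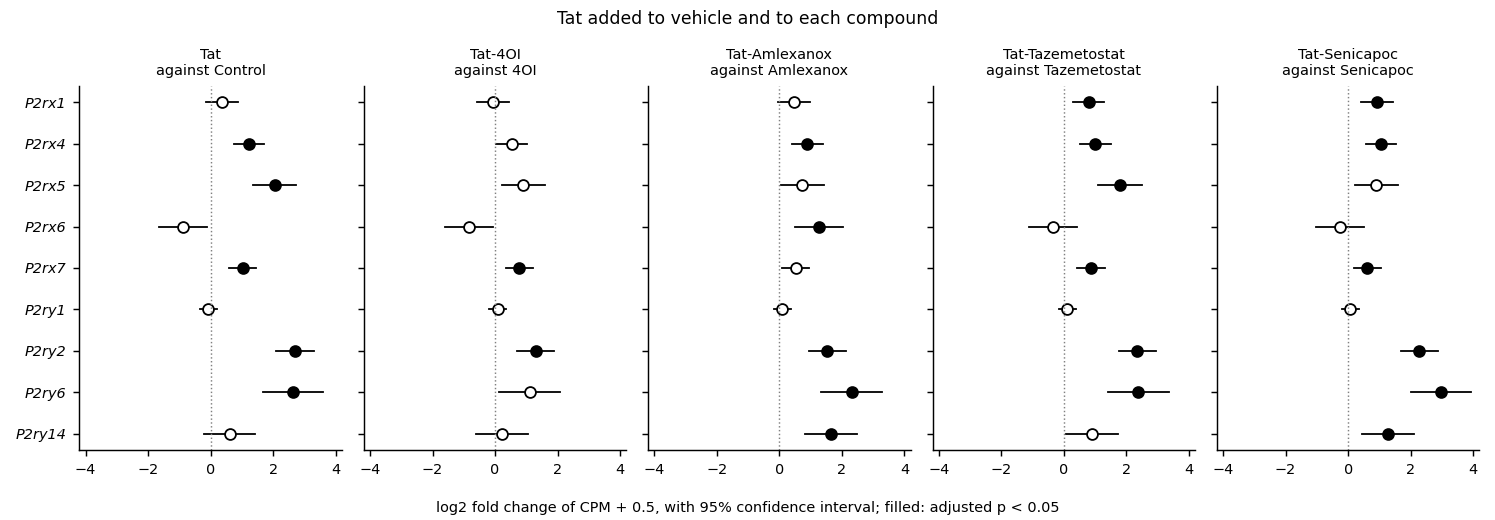
Log2 fold change of CPM + 0.5 with Tat (horizontal axis, with 95% confidence intervals) for each receptor gene, in cultures without a compound and in cultures with 4OI, amlexanox, tazemetostat or senicapoc. For P2ry2 the change is 2.697 without a compound, 2.35 with tazemetostat, 2.27 with senicapoc, 1.54 with amlexanox and 1.30 with 4OI.

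Whether a compound changed the size of the Tat response was tested as an interaction. For 4OI, limma called 0 of the 9 (beside 0.497% of all genes) and 4 had an unadjusted p under 0.05. These were P2ry2 at -1.40 ± 0.41 (SE, adjusted p = 0.123), P2ry6 at -1.52 (adjusted p = 0.380), P2rx5 at -1.15 (adjusted p = 0.355) and P2rx4 at -0.70 (adjusted p = 0.416). In this fit the smaller rise of these genes under 4OI was therefore not shown to differ from that without a compound. With the replicate number as a block over all 48 libraries, limma called P2ry2 (adjusted p = 0.0188), but the numbers did not pair Tat and Control. For tazemetostat limma called 0 of the 9 (beside 0% of all genes), with 0 at an unadjusted p under 0.05. For senicapoc it also called 0 (beside 0%), with 1 at an unadjusted p under 0.05. For amlexanox 1 of the 9 was called, P2rx6, beside 1.84% of all genes.

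4OI added to Tat lowered 6 of the 9 receptor genes, P2rx1, P2rx4, P2rx5, P2rx7, P2ry2 and P2ry6, and raised 0. Of all genes 15.6% were called. The median difference of the 9 was -0.80, and that over all genes was close to 0. P2rx1 read 6.69, 5.33 and 5.29 CPM with Tat and 1.87, 1.18 and 1.31 CPM with Tat and 4OI. The groups lay far apart, and the change was -1.69 ± 0.25 (SE, adjusted p = 1.47e-05). P2ry2 read 3.16, 5.91 and 3.60 CPM with both, below all Tat libraries, a change of -1.51 ± 0.29 (SE, adjusted p = 4.91e-04). P2ry6 read 18.8, 39.2 and 17.6 CPM, also below all Tat libraries, a change of -1.88 ± 0.48 (SE, adjusted p = 0.00671).

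P2rx4 read 55.3, 87.9 and 58.8 CPM with Tat and 4OI, P2rx7 4.44, 6.45 and 4.38 CPM and P2rx5 1.23, 1.77 and 1.51 CPM. Each of the 3 channel genes lay below its Tat libraries without overlap. P2rx4 fell by 0.79 on the log2 scale (adjusted p = 0.0235), P2rx7 by 0.80 (adjusted p = 0.0107) and P2rx5 by 1.05 (adjusted p = 0.0330). P2ry14, P2ry1 and P2rx6 differed by -0.74 (adjusted p = 0.211), 0.11 (adjusted p = 0.580) and 0.26 (adjusted p = 0.667). The P2rx5 call was lost without any 1 of 5 of the 6 libraries (all but Tat-4OI replicate 2), with a pseudocount of 0.1 CPM, with no filter, with quantile normalization and in the fit to the 21 libraries of 7 groups. The calls of P2rx1 and P2ry2 held without any single library and under each of the 11 other settings. The count of 6 was 2 without Tat replicate 2 or in the fit to the 21 libraries of 7 groups, and 3 without Tat-4OI replicate 1 or replicate 3.

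In bulk RNA, fewer cells of a type and less RNA per cell cannot be told apart, and myeloid markers moved along with several of these genes. With Tat, 5 of the 16 markers rose (Aif1, Fcer1g, Itgam, Ptprc, Spi1), with sums of 2187 to 4009 CPM in Control and 3007 to 5283 CPM in Tat cultures. With 4OI added to Tat 6 fell (C1qb, C1qc, Csf1r, Fcer1g, Itgam, Spi1) and 0 rose, with sums of 1253 to 2788 CPM. Of the other marker lists, 3 of 10 astrocyte markers fell with Tat (Aldoc, Gfap, S100b) and 1 rose with 4OI added to it (Slc1a2), while 0 of the neuronal, oligodendrocyte, precursor, endothelial and ependymal markers were called in either comparison. Kcnj8 rose and Acta2 fell with Tat among 10 markers of mural cells and fibroblasts, Itga2b rose and Pf4 fell among 3 platelet markers, and the lymphocyte marker Cd79b rose with Tat and fell with 4OI added to it. Pdgfrb of the mural list also fell with 4OI added to Tat. The part of these markers in the receptor changes was not tested. Per 1000 CPM of the summed markers, P2ry6 stood at 5.27 ± 1.99 CPM (SD, n = 3) in Control, 23.2 ± 6.61 in Tat and 12.8 ± 2.19 in Tat-4OI cultures. In single libraries this value of P2ry6 was at least 10.3 CPM in the 30 with Tat and at most 7.97 CPM in the 18 without. P2ry2 stood at 0.562 ± 0.153, 3.28 ± 0.708 and 2.24 ± 0.586 on the same scale. P2rx1 stood at 1.60 ± 0.198, 1.56 ± 0.617 and 0.830 ± 0.352. P2rx4 stood at 17.9 ± 2.82, 29.6 ± 4.104 and 36.2 ± 9.31, P2rx7 at 1.60 ± 0.485, 2.38 ± 0.469 and 2.74 ± 0.653, and P2rx5 at 0.177 ± 0.0532, 0.938 ± 0.131 and 0.836 ± 0.318. On this scale the means of P2rx4 and P2rx7 were higher in Tat-4OI than in Tat cultures, and those of P2rx1, P2rx5, P2ry2 and P2ry6 were lower.

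Over the 48 libraries the log2 levels of the receptor genes correlated with the summed myeloid markers to different degrees, given here as a description since the libraries share treatments. Pearson's r was 0.795 for P2ry14, 0.793 for P2rx1, 0.738 for P2rx4, 0.735 for P2ry6, 0.662 for P2ry2, 0.652 for P2rx7 0.550 for P2rx5, 0.0226 for P2rx6 and -0.171 for P2ry1. For several genes another list gave an r further from 0. This was 0.824 for P2ry6 and 0.780 for P2ry2 with the lymphocyte markers, of which only Cd79b passed 0.5 CPM in any library, -0.755 for P2rx4 and -0.661 for P2rx7 with the neuronal markers, and -0.731 for P2rx5 with the astrocyte markers. P2rx6 had an r of 0.824 with the ependymal markers and 0.641 with those of mural cells and fibroblasts, and P2ry1 reached 0.281 with the latter.

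**Figure D3:**
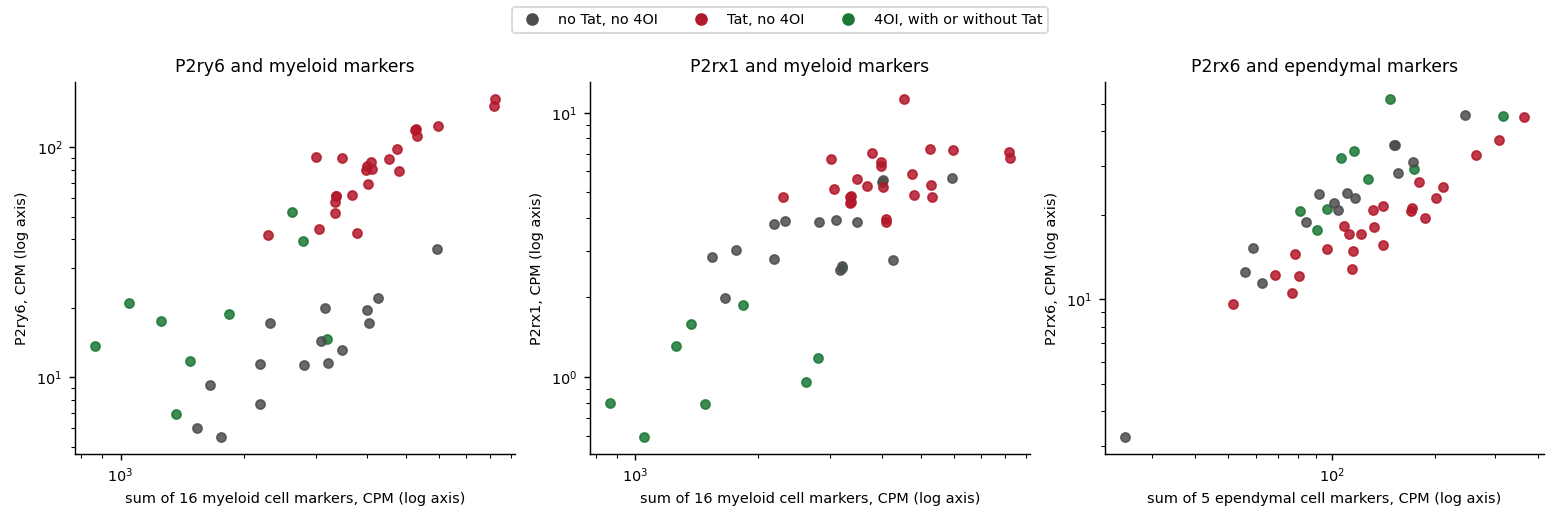
CPM of P2ry6 and of P2rx1 against the summed CPM of 16 myeloid markers, and CPM of P2rx6 against the summed CPM of 5 ependymal markers, with 1 point for each of the 48 libraries and log axes. Libraries with Tat lie above those without at similar marker sums for P2ry6, libraries with 4OI hold the lowest P2rx1 values, and P2rx6 is higher where the ependymal sum is higher (r = 0.824).

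4OI without Tat lowered 1 of the 9, P2rx1, beside 3.15% of all genes. P2rx1 read 1.58, 2.59 and 0.792 CPM with 4OI alone, below all 3 Control libraries, a change of -1.26 ± 0.25 (SE, adjusted p = 0.00186). Of the 9 libraries with 4OI, 8 were below the lowest of the 39 libraries without it (1.99 CPM). None of the 16 myeloid markers passed the threshold in this comparison, and their sums were 1366 to 3194 CPM with 4OI. Per 1000 CPM of these markers, P2rx1 stood at 0.835 ± 0.313 CPM with 4OI alone. P2rx7 differed by -0.56 ± 0.22 (SE, adjusted p = 0.202). The numbers pair these groups, but the replicate block was fitted as 1 effect over all 48 libraries. With it, limma called 2 of the 9 and P2rx7 had an adjusted p of 0.0263. Without 4OI replicate 3, or when only the compared groups were fitted, 0 were called.

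In cultures that also received cocaine, 4OI lowered P2rx1 and P2ry2 and raised P2rx6, 3 of the 9 beside 7.36% of all genes. P2rx1 read 7.07, 4.79 and 5.64 CPM in Tat-Cocaine and 0.796, 0.962 and 0.595 CPM in Tat-Cocaine-4OI cultures, the lowest group mean of the 16. The change was -2.30 ± 0.25 (SE, adjusted p = 7.15e-08). P2ry2 read 7.41, 8.23 and 13.6 CPM and 2.67, 6.41 and 3.42 CPM, without overlap, a change of -1.17 ± 0.29 (SE, adjusted p = 0.0108). P2ry6 read 42.5, 41.5 and 89.5 CPM and 13.7, 52.3 and 21.1 CPM. These overlapped, since replicate 2 with 4OI was above 2 of the libraries without it, and the difference was -1.11 ± 0.48 (SE, adjusted p = 0.163). P2rx4, P2rx5 and P2rx7, which fell with 4OI added to Tat, were not called here, and their ranges overlapped. P2rx4 read 84.8, 77.2 and 114 CPM in Tat-Cocaine and 57.7, 111 and 68.7 CPM in Tat-Cocaine-4OI cultures. P2rx7 read 6.73, 7.82 and 7.25 CPM and 5.24, 9.97 and 6.00 CPM. P2rx6 read 9.66, 12.1 and 17.2 CPM and, with 4OI, 21.1, 45.01 and 29.2 CPM, without overlap, and rose by 1.23 ± 0.38 (SE, adjusted p = 0.0396). Of 5 ependymal markers 1 rose as well (Tmem212), with sums of 51.4 to 122 CPM and 97.1 to 316 CPM. Of the 16 myeloid markers, 5 fell in this comparison, to sums of 866 to 2621 CPM. Per 1000 CPM of them, P2ry2 stood at 3.15 ± 1.05 CPM (SD, n = 3) in Tat-Cocaine and 2.93 ± 0.427 CPM in Tat-Cocaine-4OI cultures, P2ry6 at 18.3 ± 7.28 and 18.6 ± 2.42 CPM, and P2rx1 at 1.86 ± 0.232 and 0.618 ± 0.279 CPM. On this scale P2rx4 stood at 29.6 ± 6.33 and 58.1 ± 13.7 CPM and P2rx7 at 2.42 ± 0.868 and 5.19 ± 1.21 CPM. P2rx6 stood at 4.25 ± 1.49 and 23.1 ± 5.44 CPM, and P2rx5 at 1.02 ± 0.765 and 1.25 ± 0.513 CPM. The part of either marker list was not tested. The P2rx6 call was lost without any 1 of 4 of the 6 libraries (replicates 1 and 2 of Tat-Cocaine, 2 and 3 of Tat-Cocaine-4OI) and with no filter on low genes. The P2ry2 call was lost without Tat-Cocaine replicate 3 and without replicate 1 or 3 of Tat-Cocaine-4OI. It was also lost in the fit to the 21 libraries of 7 groups and when only the compared groups were fitted. The count of 3 was 1 without Tat-Cocaine-4OI replicate 3, and likewise when only the compared groups were fitted.

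Cocaine by itself changed 0 of the 9 by limma, and 0 had an unadjusted p under 0.05, beside 0.201% of all genes called. Without Cocaine replicate 3 the count was 0 too. Tat-Cocaine against Tat gave 0 calls among the 9 and 0 at an unadjusted p under 0.05, beside 0.0189%. Cocaine added to Tat, averaged over cultures with no compound and with each of the 4 compounds, likewise gave 0 and 0, beside 4.55%. Against Control, Tat-Cocaine raised P2rx4, P2rx5, P2rx7, P2ry2 and P2ry6 and lowered P2rx6, 6 of the 9 beside 14.9%. P2ry2 changed by 2.30 ± 0.29 (SE, adjusted p = 7.43e-07) and P2ry6 by 1.94 ± 0.48 (SE, adjusted p = 0.00468). P2rx6 read 9.66, 12.1 and 17.2 CPM, below all Control libraries, and changed by -1.38 ± 0.38 (SE, adjusted p = 0.0106). The count was 3 without Control replicate 1 and 2 when only the compared groups were fitted.

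**Figure D4:**
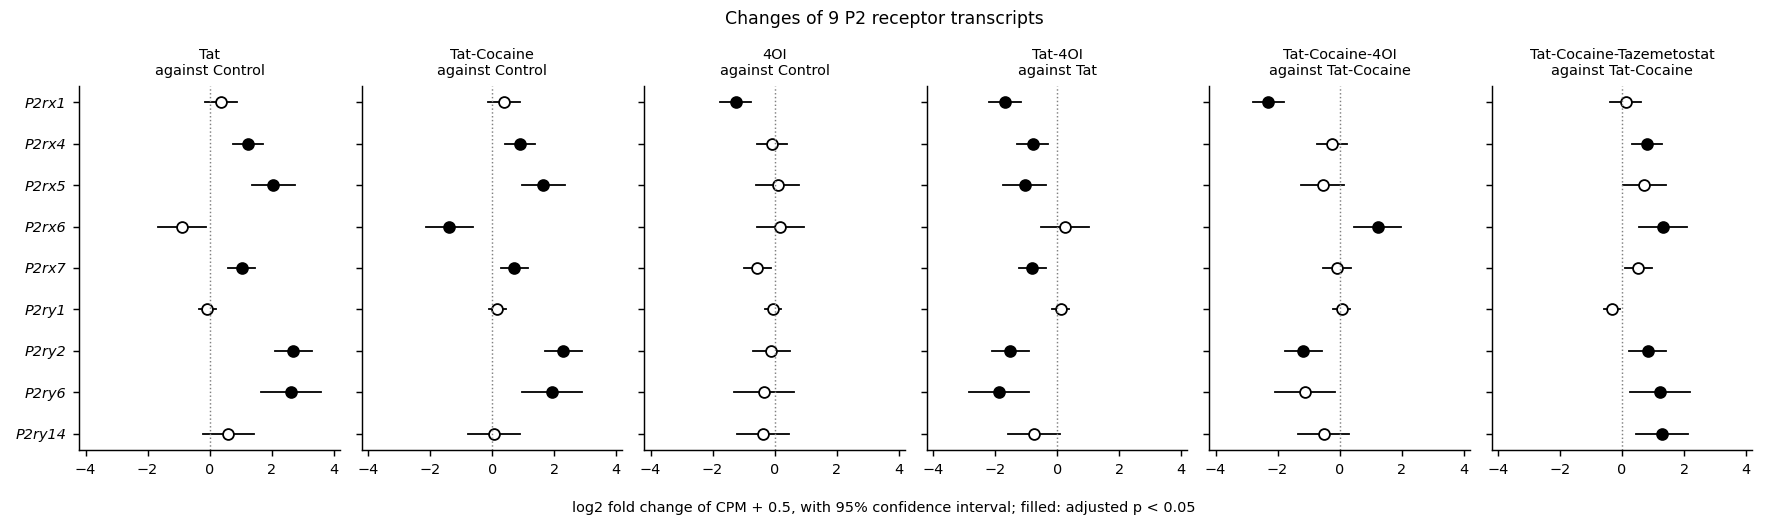
Log2 fold changes of CPM + 0.5 (horizontal axis) with 95% confidence intervals for the 9 receptor genes in 6 comparisons, filled where the adjusted p was under 0.05. With Tat the intervals of P2ry2, P2ry6, P2rx5, P2rx4 and P2rx7 lie above 0, with 4OI added to Tat those of P2rx1 and P2ry2 lie furthest below 0 relative to their width, and P2ry1 lies between -0.32 and 0.16 in all 6.

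P2rx6 moved with amlexanox. It read 23.7, 35.5 and 45.6 CPM in Control and 11.4, 12.5 and 3.23 CPM with amlexanox, the lowest group mean of the series. The groups did not overlap, and the change of -2.04 ± 0.38 (SE, adjusted p = 7.76e-04) was the 1 call among the 9, beside 11.4% of all genes. With Tat and amlexanox it read 19.5, 25.2 and 14.8 CPM, above all 3 libraries of amlexanox alone, and rose by 1.26 ± 0.38 (SE, adjusted p = 0.0101). The interaction was 2.15 ± 0.53 (SE, adjusted p = 0.0340). It was lost without any 1 of 7 libraries (Control 2 and 3, Tat 2 and 3, Amlexanox 3, Tat-Amlexanox 1 and 2), with no filter on low genes and when only the compared groups were fitted. The fall of P2rx6 with amlexanox alone was also lost when only Amlexanox and Control cultures were fitted, but not without any single library. P2ry14 likewise had its lowest group mean with amlexanox alone, 1.21, 1.47 and 0.626 CPM, below the Control libraries at 1.82, 3.24 and 3.06 CPM. Its difference of -1.01 ± 0.41 (SE, adjusted p = 0.105, limma) did not pass the threshold.

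Markers of ependymal cells, the ciliated lining of the ventricles, moved alongside P2rx6. All 5 markers in the table fell with amlexanox, from sums of 92.1 to 246 CPM to 24.9 to 62.8 CPM, and all 5 rose when Tat was added, to 116 to 212 CPM. Of the 5, Ccdc153 and Pifo, 2 in all, passed the interaction test. The summed markers of mural cells and fibroblasts (10 genes) were lower with amlexanox too, 1063 to 1632 CPM in Control, 192 to 843 CPM with amlexanox and 484 to 872 CPM with Tat added. Single markers of that list passed the threshold less broadly, 1 of 10 lower with amlexanox, and 3 higher and 1 lower when Tat was added. The part of both lists in the P2rx6 change was not tested. The gene overlaps Lrrc74b in the annotation.

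Tazemetostat added to Tat and cocaine raised 5 of the 9, P2rx4, P2rx6, P2ry2, P2ry6 and P2ry14, beside 28.7% of all genes, and these cultures had the highest mean of the 16 groups for P2rx4, P2rx5, P2rx7, P2ry2, P2ry6 and P2ry14. P2rx6 read 32.9, 44.6 and 22.9 CPM and rose by 1.32 ± 0.38 (SE, adjusted p = 0.0137). P2ry14 read 2.19, 2.44 and 3.95 CPM in Tat-Cocaine and 6.52, 10.7 and 5.90 CPM with tazemetostat, without overlap, and rose by 1.28 ± 0.41 (SE, adjusted p = 0.0224). P2rx4 rose by 0.81, P2ry2 by 0.83 and P2ry6 by 1.23. In the same comparison 9 of 16 myeloid markers and all 5 ependymal markers rose and 12 of 16 neuronal markers fell, and their part in it was not tested. Per 1000 CPM of the summed myeloid markers, P2rx4 stood at 29.6 ± 6.33 CPM (SD, n = 3) in Tat-Cocaine cultures and 25.02 ± 1.56 CPM with tazemetostat. P2ry2 stood at 3.15 ± 1.05 and 2.69 ± 0.336 CPM, and P2ry6 at 18.3 ± 7.28 and 20.04 ± 1.35 CPM. P2ry14 stood at 0.925 ± 0.303 and 1.17 ± 0.123 CPM, and P2rx6 at 4.25 ± 1.49 and 5.09 ± 0.673 CPM. On this scale the means of P2rx4 and P2ry2 were lower with tazemetostat, the others higher. Without Tat-Cocaine replicate 1, Tat-Cocaine replicate 2 or Tat-Cocaine-Tazemetostat replicate 2 the count was 0. It was 3 without Tat-Cocaine-Tazemetostat replicate 3 or with no filter on low genes. With single libraries left out, the call of P2ry6 held in 1 of 6 cases and that of P2ry2 in 2 of 6. Those of P2rx4, P2rx6 and P2ry14 held in 3 of 6 each. The P2ry6 call was also lost with a pseudocount of 0.1 CPM, no filter, median ratio rescaling and limma without a trend.

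The remaining single additions gave no call among the 9. Tazemetostat against Control (0% of all genes) and Tat-Tazemetostat against Tat (0%) gave 0 calls by limma and 0 at an unadjusted p under 0.05. Senicapoc against Control gave 0 calls and 2 at an unadjusted p under 0.05 (0% of all genes), Tat-Senicapoc against Tat 0 and 1 (0.409%), and Tat-Cocaine-Senicapoc against Tat-Cocaine 0 and 2 (0.0441%). Tat-Amlexanox against Tat gave 0 calls and 3 at an unadjusted p under 0.05 (0.837%). The numbers pair these last groups, and with the replicate block over all 48 libraries P2rx5 was called there at -1.05 (adjusted p = 0.00931). Tat-Cocaine-Amlexanox against Tat-Cocaine gave 0 and 0 (0.925%). Without Tat-Cocaine replicate 3, 1 of the 9 was called in each of the comparisons of amlexanox and of senicapoc with Tat-Cocaine.

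Set directly against the other compounds in Tat cultures, 4OI left P2rx1 and P2ry6 lower in each case. P2rx1 read 1.87, 1.18 and 1.31 CPM with 4OI, 4.84, 3.85 and 4.80 CPM with amlexanox, 5.25, 6.74 and 4.87 CPM with tazemetostat and 5.16, 5.85 and 6.26 CPM with senicapoc. The 4OI libraries were below all others, with differences of -1.36 ± 0.25 (SE, adjusted p = 3.84e-04), -1.65 ± 0.25 (SE, adjusted p = 3.09e-05) and -1.69 ± 0.25 (SE, adjusted p = 1.67e-05). P2ry6 differed by -1.41, -2.01 and -1.58. With single libraries left out, its call held in 2 of 6 cases against amlexanox, 5 of 6 against tazemetostat and 2 of 6 against senicapoc. In all, 2 of the 9 were lower than with amlexanox (13.7% of all genes), 5 lower than with tazemetostat (16.1%) and 3 lower than with senicapoc (8.43%). Leaving out single libraries gave 1 to 3, 2 to 7 and 1 to 3. The summed myeloid markers were 1253 to 2788 CPM with 4OI, below 3340.4 to 4112 CPM with amlexanox, 4037 to 8223 CPM with tazemetostat and 3061 to 4753 CPM with senicapoc, with 3, 11 and 4 of the 16 called lower and 0 higher. Their part was not tested. Per 1000 CPM of them P2ry6 stood at 12.8 ± 2.19 CPM (SD, n = 3) with 4OI and at 17.8 ± 2.08, 17.8 ± 1.67 and 18.7 ± 3.62 CPM with the others, and P2rx1 at 0.830 ± 0.352 CPM and at 1.27 ± 0.289, 1.05 ± 0.242 and 1.49 ± 0.237 CPM. Of the other genes called lower than with tazemetostat, P2rx4 stood at 36.2 ± 9.31 CPM with 4OI and 24.04 ± 3.03 CPM with tazemetostat. P2rx7 stood at 2.74 ± 0.653 and 1.64 ± 0.415 CPM, and P2ry2 at 2.24 ± 0.586 and 2.64 ± 0.0742 CPM.

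With cocaine present as well, P2rx1 and P2ry2 were lower with 4OI than with each of the others. P2ry2 read 2.67, 6.41 and 3.42 CPM with 4OI, 7.19, 10.04 and 7.38 CPM with amlexanox, 14.6, 20.8 and 16.3 CPM with tazemetostat and 11.3, 14.6 and 11.9 CPM with senicapoc. All 3 libraries with 4OI were below the other 9. Against amlexanox 2 of the 9 were called, both lower (8.86% of all genes). The P2ry2 call against amlexanox was lost on leaving out any 1 of the 6 libraries but Tat-Cocaine-4OI replicate 2. It was also lost with no filter and when only the compared groups were fitted. The P2ry2 calls against tazemetostat and senicapoc held in all of these settings. Against tazemetostat 8 were called, 7 lower and P2ry1 higher by 0.38 ± 0.13 (SE, adjusted p = 0.0303), beside 24.4%. Against senicapoc 5 were called, P2rx1, P2ry2, P2ry6 and P2ry14 lower and P2ry1 higher by 0.39 ± 0.13 (SE, adjusted p = 0.0450), beside 12.5%. P2ry1 read 19.8, 19.9 and 15.96 CPM with 4OI, 13.3, 13.8 and 15.1 CPM with tazemetostat and 14.5, 13.6 and 13.96 CPM with senicapoc. The call of P2ry1 against senicapoc was lost without any 1 of 5 of the 6 libraries (all but Tat-Cocaine-4OI replicate 3), with no filter, with median ratio rescaling and when only the compared groups were fitted, and that against tazemetostat without any 1 of 4 libraries (replicates 1 and 2 of both groups) and when only the compared groups were fitted. Leaving out single libraries gave 1 to 4, 5 to 7 and 2 to 5 calls.

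The myeloid markers moved with these differences too. Their sums were 866 to 2621 CPM with 4OI, 3339.6 to 4107 CPM with amlexanox, 5320.5 to 8183 CPM with tazemetostat and 3986 to 5255 CPM with senicapoc. Of the 16 markers, 6, 16 and 13 were lower with 4OI than with these compounds and 0 higher, and their part was not tested. Per 1000 CPM of them, the mean of P2ry2 with 4OI was not the lower one, at 2.93 ± 0.427 CPM (SD, n = 3) against 2.26 ± 0.159, 2.69 ± 0.336 and 2.75 ± 0.242 CPM. P2rx1 stood at 0.618 ± 0.279 CPM with 4OI against 1.23 ± 0.234, 0.990 ± 0.186 and 1.83 ± 0.575 CPM. P2rx4 stood at 58.1 ± 13.7 CPM with 4OI against 25.3 ± 0.561, 25.02 ± 1.56 and 24.3 ± 1.89 CPM. P2rx7 stood at 5.19 ± 1.21 CPM against 1.73 ± 0.0725, 1.69 ± 0.338 and 1.96 ± 0.115 CPM. Of the other genes called lower than with tazemetostat, P2rx5 stood at 1.25 ± 0.513 CPM with 4OI and 0.726 ± 0.0462 CPM with tazemetostat. P2ry6 stood at 18.6 ± 2.42 and 20.04 ± 1.35 CPM, and P2ry14 at 1.30 ± 0.336 and 1.17 ± 0.123 CPM.

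Ordered by their means, the 16 groups of a gene formed 15 steps, most of which were within the spread of the libraries. For P2ry2 the libraries of neighbouring groups did not overlap at 2 steps, below Tat-Amlexanox and below Tat-Cocaine-4OI. For P2rx1 this held at 2 steps, below Tat-Cocaine-Amlexanox and below Tat-4OI. P2rx7 had 1 such step, below Amlexanox, and P2ry14 1, below Senicapoc. P2rx4, P2rx5, P2rx6, P2ry1 and P2ry6 had 0. Group means ran from 8.89 (Senicapoc) to 128.8 CPM (Tat-Cocaine-Tazemetostat) for P2ry6, from 1.45 (4OI) to 17.3 CPM (Tat-Cocaine-Tazemetostat) for P2ry2 and from 40.1 (Senicapoc) to 161 CPM (Tat-Cocaine-Tazemetostat) for P2rx4.

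The genes most like each receptor over the 48 libraries, by Pearson's r of the log2 values, differed from receptor to receptor. P2ry6 was closest to Rac2 (0.991), Ncf4 (0.987) and Itgal (0.981). P2rx4 was closest to Mapkapk2 (0.979), Sting1 (0.976) and Akna (0.968). P2ry2 was closest to Batf (0.965), Map3k8 (0.965) and Wnt6 (0.961). P2rx7 went with LOC100364435 (0.949), Dlgap5 (0.939) and Tnfaip2 (0.935), and P2rx5 with Crispld2 (0.943), Edf1 (0.941) and Cd69 (0.927). P2ry14 went with Parvg (0.952), Dock8 (0.952) and Ptprj (0.949), and P2rx1 with Ebi3 (0.916), Tnfsf10 (0.896) and Sipa1 (0.883). P2rx6 went with Ak7 (0.950), Folr1 (0.936) and AABR07005983.1 (0.922). P2ry1 had no close partner, its nearest being Zfpm2 (0.661), Slc41a3 (0.608) and Cep68 (0.600). Among the receptors themselves, the pairs of P2rx4, P2rx5, P2rx7, P2ry2 and P2ry6 had r between 0.823 and 0.956.

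Like P2rx1, P2rx6, P2ry1 and P2ry14, the receptors of resting microglia that were left out of the group were not called with Tat. P2ry12 stood at 10.1, 40.01 and 19.97 CPM in Control and at 11.2, 18.99 and 7.78 CPM in Tat cultures, overlapping ranges with a difference of -0.74 (adjusted p = 0.369). P2ry13 stood at 1.92, 5.71 and 7.22 CPM and at 2.89, 4.87 and 1.32 CPM, also overlapping, with a difference of -0.60 (adjusted p = 0.433). Of the other P2 receptors, P2rx2 fell with Tat by 1.21 on the log2 scale (adjusted p = 0.0109) and P2ry4 by 0.67 (adjusted p = 0.0336), and 0 of the 5 tested rose. P2ry4 was near the floor, with a median of 0.503 CPM and 25 of the 48 libraries at 0.5 CPM or more. P2rx2 read 2.15, 1.47 and 1.91 CPM in Control and 0.304, 0.276 and 1.13 CPM in Tat cultures. With 4OI added to Tat 0 of the 5 were called.

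Genes that break down nucleotides outside the cell also changed with Tat, 4 of 11 ectonucleotidases higher and 0 lower. These were Acpp, an acid phosphatase, at 1.36 (adjusted p = 0.00137), Alpl, an alkaline phosphatase, at 2.25 (adjusted p = 1.55e-05), and the phosphodiesterases Enpp2, which mainly makes lysophosphatidic acid, at 1.17 (adjusted p = 0.00351) and Enpp3 at 1.78 (adjusted p = 0.00950). Acpp was low, with a median of 0.773 CPM and 36 of the 48 libraries at 0.5 CPM or more. With 4OI added to Tat, Alpl changed by -1.20 (adjusted p = 0.0188) and Enpp2 by -1.13 (adjusted p = 0.00754), and 1 of the 11 rose. That was Entpd5, a nucleoside diphosphatase of the endoplasmic reticulum, which read 61.6, 62.2 and 51.7 CPM in Control, 50.95, 42.8 and 61.98 CPM in Tat, 189, 187 and 214 CPM in 4OI and 247, 209 and 234 CPM in Tat-4OI cultures. All libraries with 4OI were above all without it among these groups, with 2.15 (adjusted p = 9.41e-10) against Tat and 1.74 (adjusted p = 7.31e-08) for 4OI alone.

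Of 8 genes of nucleotide release and nucleoside transport, the nucleoside transporter Slc28a2 rose with Tat by 1.47 (adjusted p = 0.00257), while Gja1, which encodes the astrocyte connexin 43, changed by -1.14 (adjusted p = 0.00258) and Slc28a3 by -0.64 (adjusted p = 0.00879). Slc28a3 was near the floor, with a median of 0.393 CPM and 16 of the 48 libraries at 0.5 CPM or more. With 4OI added to Tat Slc28a2 changed by -1.66 (adjusted p = 0.00129), and Panx2, a pannexin, rose by 0.59 (adjusted p = 0.0156). Of 3 adenosine receptors 0 were called with Tat, and Adora2b fell with 4OI added to Tat, by 0.76 on the log2 scale (adjusted p = 3.43e-04). Of 5 genes of adenosine metabolism Ahcy rose with Tat by 0.40 (adjusted p = 0.00789), and Ada, which deaminates adenosine, changed by -1.39 (adjusted p = 0.0350) with 4OI added to Tat.

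Partners that act after P2X7 and the P2Y receptors moved in the same comparisons, 4 of 10 higher and 0 lower with Tat. Il1b, which encodes interleukin-1β, changed by 3.96 (adjusted p = 4.18e-07), Casp1, its processing protease, by 1.78 (adjusted p = 0.00101), Pycard, the inflammasome adaptor, by 1.24 (adjusted p = 0.0338) and Itpr2, a calcium release channel, by 0.46 (adjusted p = 0.00578). With 4OI added to Tat 4 of the 10 fell and 1 rose. Il1b changed by -2.25 (adjusted p = 0.00225), Casp1 by -1.71 (adjusted p = 0.00247), Nlrp3 by -1.42 (adjusted p = 0.0119), Pycard by -1.20 (adjusted p = 0.0496) and Gnaq, the G protein subunit of several P2Y receptors, by 0.40 (adjusted p = 0.0106). The background of these comparisons is that given above, 21.3% of all genes with Tat and 15.6% with 4OI added to it.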

How the data were processed

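RNA was sequenced from 48 libraries in 16 groups of 3, mapped to groups by their labels. Per the processing notes and methods, reads were trimmed with Trim Galore 0.4.5, aligned with STAR 2.7.2 and counted with featureCounts (Subread 1.5.3). The deposited signal is TMM-normalized CPM, made by the authors with edgeR. The deposited table also holds the authors' group means and their fold changes, likelihood ratios, p-values and FDR values, which were not used. Between 84.3 and 87.3% of a library's values above 0 were whole reads within 0.02 read, so count tests were not run. Genes that reached 0.5 CPM in 3 or more libraries were tested as log2(CPM + 0.5) with limma 3.58.1 (R 4.3.3; eBayes with trend, 1 mean per group, no covariates), with contrasts in 31 comparisons and Benjamini-Hochberg adjustment over all genes tested. The script was tested on simulated data. The smallest p of an exact permutation test of 3 libraries against 3 is 0.1.

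The receptor genes and the lists of related genes and markers were chosen with earlier results of these data known, and the 6 comparisons of 4OI with other compounds after seeing the data. Genes named are the 9 receptors, P2ry12 and P2ry13, list genes past the threshold with Tat or with 4OI added to Tat, and the 3 genes most correlated with each receptor. The ependymal markers Tmem212, Ccdc153 and Pifo were named after their values were seen. Replicate numbers were taken to pair 2 groups where same-numbered libraries deviated together with r over 0.1 for each number, which held in 27 of 120 pairs of groups, not for Tat and Control. Promoters are RefSeq sequence of GRCr8, a build other than the one used for counting. The result of 1 gene of the myeloid marker list is not reported here.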

Additional observations from a re-analysis of the deposited data

Results flagged for a closer look

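One result stood out because the effect of a compound differed between cultures by a test of the difference itself. The amlexanox effect on P2rx6 in Tat cultures minus that in cultures without Tat was 2.15 on the log2 scale (SE 0.53, adjusted p = 0.0340, limma), with 23.7, 35.5 and 45.6 CPM in Control, 11.4, 12.5 and 3.23 CPM in Amlexanox, 18.1, 20.9 and 15.1 CPM in Tat and 19.5, 25.2 and 14.8 CPM in Tat-Amlexanox cultures. Amlexanox replicate 3 was the lowest of these libraries, and without it the difference no longer passed the threshold.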

How the results depend on the processing

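The 72 calls of receptor genes were recomputed with other pseudocounts, filters, scalings, weights and fits. Of 743 values, 683 kept their direction and their side of the threshold, 60 kept the direction alone and 0 reversed. When single libraries were left out, 322 of 438 kept the call, 116 kept the direction alone and 0 reversed, and 29 of the 72 calls held throughout. The causes of these changes were not tested. At these depths and with 3 libraries per group, a missed threshold does not show that a gene did not differ.

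When only the compared groups were fitted, which leaves fewer libraries to estimate the spread, the receptor genes called fell from 6 to 2 in Tat-Cocaine against Control, from 1 to 0 for 4OI alone, for amlexanox alone and for the amlexanox interaction, from 3 to 1 for 4OI added to Tat-Cocaine and from 2 to 0 in Tat-4OI against 4OI. They fell from 5 to 1 in Tat-4OI against Tat-Tazemetostat and from 3 to 1 against Tat-Senicapoc, and in Tat-Cocaine-4OI cultures from 2 to 1 against amlexanox, from 8 to 4 against tazemetostat and from 5 to 2 against senicapoc. In the fit to the 21 libraries of 7 groups the count was 2 rather than 6 for Tat-4OI against Tat and 1 rather than 2 for Tat-4OI against 4OI. With vooma weights the latter was 1. With no filter it was 3 rather than 5 for tazemetostat added to Tat-Cocaine, 0 rather than 1 for the amlexanox interaction, 1 rather than 2 for Tat-4OI against Tat-Amlexanox and 1 rather than 2 for the same pair with cocaine.

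With the replicate number as a block, 2 receptor genes rather than 1 were called for 4OI alone and for amlexanox alone, 1 rather than 0 in Tat-Amlexanox and in Tat-Senicapoc against Tat, 5 rather than 2 in Tat-4OI against 4OI, 1 rather than 0 for the 4OI interaction (P2ry2, adjusted p = 0.0188), 3 rather than 1 for the amlexanox interaction and 4 rather than 2 for Tat-Cocaine-4OI against Tat-Cocaine-Amlexanox. In Tat against Control it added P2rx6 (adjusted p = 0.0438). In the remaining comparisons the block moved the count of receptor genes by at most 1.5 times. By the rule used, the numbers did not pair Tat and Control, whose same-numbered libraries correlated at -0.103, 0.302 and -0.567. Replicate 2 had the highest summed myeloid markers in Control (4009 CPM) and in Tat (5283 CPM), as in every group but Tat-Cocaine. Its part in the receptor values was not tested.

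Leaving out single libraries gave 3 to 6 receptor genes in Tat-Cocaine against Control, 0 to 1 for 4OI alone, 2 to 6 for 4OI added to Tat, 1 to 3 for 4OI added to Tat-Cocaine, 0 to 1 for amlexanox or senicapoc added to Tat-Cocaine, and 0 to 6 for tazemetostat added to Tat-Cocaine. It gave 0 to 2 for Tat-4OI against 4OI, 3 to 6 for Tat under tazemetostat and under senicapoc, and 0 to 1 for the amlexanox interaction. For 4OI against amlexanox, tazemetostat and senicapoc it gave 1 to 3, 2 to 7 and 1 to 3 with Tat, and 1 to 4, 5 to 7 and 2 to 5 with Tat and cocaine.

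Counts over all genes moved more. Fitting only the compared groups gave 1252 genes against 3382 for Tat, 619 against 2372 for Tat-Cocaine, 101 against 501 for 4OI alone, 0 against 1804 for amlexanox alone, 1134 against 2475 for 4OI added to Tat and 113 against 1170 for 4OI added to Tat-Cocaine. It gave 809 against 2554 for Tat under tazemetostat, 1567 against 2540 under senicapoc and 0 against 292 for the amlexanox interaction. For 4OI against tazemetostat and senicapoc it gave 246 against 2552 and 824 against 1339 with Tat, and with cocaine as well 469 against 1408 (amlexanox), 2134 against 3877 and 1008 against 1988. The fit to 21 libraries gave 372 against 823 for Tat under 4OI and 5 against 79 for the 4OI interaction. The block gave 646 genes against 65 and the compared groups 0 for Tat-Senicapoc against Tat, 493 and 0 against 133 for Tat-Amlexanox against Tat, 338 and 0 against 147 for amlexanox added to Tat-Cocaine, 95 and 0 against 32 for cocaine, 16 and 0 against 3 for Tat-Cocaine against Tat and 18 and 0 against 7 for senicapoc added to Tat-Cocaine. It gave 1150 against 723 for cocaine over 5 backgrounds, 1426 against 823 for Tat under 4OI, 2073 against 1339 for Tat-4OI against Tat-Senicapoc, 233 against 79 for the 4OI interaction and 693 against 292 for that of amlexanox. It gave 15 against 0 for senicapoc alone and 16 against 0 for tazemetostat added to Tat, and no filter gave 2 against 0 for tazemetostat alone.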
